A study of Mus musculus with 39 samples.

Results

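The regions described are the stretches of the mouse genome in which every H3K27ac library of the series listed a peak. They were selected on H3K27ac itself: the peaks of the 9 H3K27ac libraries were merged wherever they shared at least 1 base, and the merged regions with a peak in 9 of 9 libraries were kept. Of 78963 merged regions, 1545 met this rule (1.96%), and they are called constant regions here. CUT&Tag uses an antibody-guided transposase to cut and label DNA next to a histone mark. It had been performed on untreated cultures of naive extra-embryonic endoderm (nEnd), a stem cell model of the early primitive endoderm, made from a single OCT4-mCherry mouse reporter line. The cells were separated by FACS into a population with OCT4-mCherry alone (Oct4+), a double positive population that also carried PDGFRA-APC (DP), and a population with PDGFRA-APC alone (Pdgfra+). H3K4me1, H3K27ac, H3K27me3 and H3K9me3 were each profiled in 3 replicates of the 3 populations, which gave 36 peak lists. The 3 IgG samples that the labels name were not analysed here. The study describes its replicates as biological and the labels do not say which of them share a culture or a sort, so p-values measure the spread between these libraries, and no source used here gives the strain or sex of the line.

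Acetylation of histone H3 at lysine 27 marks promoters and enhancers in use, and many promoters that carry it in every cell type serve genes of basic cell functions. H3K4me1 flanks promoters and covers enhancers, H3K27me3 is the product of the Polycomb repressive complex PRC2, and H3K9me3 is a mark of heterochromatin, of many repeats and of clusters of zinc finger genes. The sorted states are fractions of nEnd culture that differ in OCT4 (Pou5f1), a pluripotency factor, and in PDGFRA, a growth factor receptor of the endoderm lineage. The study describes the Oct4+ cells as de-differentiated and pluripotent, and DP and Pdgfra+ cells as the endodermal part of the culture.

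Sequences of 7 promoters are shown first, because most constant regions lay over a gene start and these belonged to genes that led the signal ranking or the gene groups below. Each runs from 200 bases before to 30 bases after a RefSeq start on mm10 (230 bases), 5′ to 3′ on the strand of the gene. Capitals mark letters of the motifs searched on both strands: GGGCGG, the SP/KLF motif, CCAAT, the NFY motif, TATAAA, the box of the same name, and CACGTG, the E-box. The first of these reads CCGCCC on the other strand, the second ATTGG and the third TTTATA. Myh9 encodes a non-muscle myosin heavy chain (chr15:77842146-77842375, minus strand), Mcl1 an inhibitor of apoptosis (chr3:95658521-95658750, plus strand), Rpl7a a protein of the large ribosomal subunit (chr2:26910607-26910836, plus strand) and Hnrnpa0 an RNA-binding protein (chr13:58128527-58128756, minus strand). Cct7 encodes a subunit of the CCT chaperonin, which folds actin and tubulin (chr6:85451305-85451534, plus strand). Junb is an immediate early gene of the AP-1 family (chr8:84978719-84978948, minus strand) and Klf4 a pluripotency-associated zinc finger factor (chr4:55532446-55532675, minus strand).
Myh9: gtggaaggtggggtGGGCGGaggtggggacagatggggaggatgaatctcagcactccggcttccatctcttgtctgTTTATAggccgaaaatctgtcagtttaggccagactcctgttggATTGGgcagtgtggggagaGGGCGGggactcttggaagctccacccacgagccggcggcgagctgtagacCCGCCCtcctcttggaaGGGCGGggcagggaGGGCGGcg
Mcl1: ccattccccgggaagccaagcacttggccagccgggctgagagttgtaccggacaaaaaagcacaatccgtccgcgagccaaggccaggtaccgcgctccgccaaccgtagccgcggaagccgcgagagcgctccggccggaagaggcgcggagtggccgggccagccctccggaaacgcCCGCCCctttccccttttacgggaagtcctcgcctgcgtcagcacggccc
Rpl7a: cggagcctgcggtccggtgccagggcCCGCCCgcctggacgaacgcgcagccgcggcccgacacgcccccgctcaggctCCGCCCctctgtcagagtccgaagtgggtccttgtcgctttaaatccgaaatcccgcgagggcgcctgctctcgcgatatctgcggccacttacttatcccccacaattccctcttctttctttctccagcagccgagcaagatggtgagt
Hnrnpa0: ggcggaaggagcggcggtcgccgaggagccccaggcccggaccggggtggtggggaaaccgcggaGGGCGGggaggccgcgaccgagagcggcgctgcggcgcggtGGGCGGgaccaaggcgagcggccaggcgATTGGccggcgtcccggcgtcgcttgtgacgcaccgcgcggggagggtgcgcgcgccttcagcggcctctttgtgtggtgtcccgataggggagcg
Cct7: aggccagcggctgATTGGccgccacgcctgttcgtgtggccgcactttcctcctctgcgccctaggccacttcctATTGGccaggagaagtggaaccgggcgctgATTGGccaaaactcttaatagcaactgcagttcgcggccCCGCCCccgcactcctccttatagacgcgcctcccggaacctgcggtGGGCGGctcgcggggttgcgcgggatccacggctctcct
Junb: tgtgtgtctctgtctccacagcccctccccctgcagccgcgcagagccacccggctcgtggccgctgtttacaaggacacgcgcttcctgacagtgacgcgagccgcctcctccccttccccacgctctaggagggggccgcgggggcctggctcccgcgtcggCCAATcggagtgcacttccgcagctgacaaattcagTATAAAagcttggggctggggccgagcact
Klf4: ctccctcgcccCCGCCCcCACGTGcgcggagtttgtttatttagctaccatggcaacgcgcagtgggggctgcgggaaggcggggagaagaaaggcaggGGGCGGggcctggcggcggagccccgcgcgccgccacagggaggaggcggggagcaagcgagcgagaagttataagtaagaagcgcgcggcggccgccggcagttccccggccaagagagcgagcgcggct

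These windows held 12 (Myh9) to 37 (Hnrnpa0) CpG dinucleotides each, and 6 of the 7 held an SP/KLF motif. The Junb window was the exception and held TATAAA with its first base at position 1 of the RefSeq start, which lay 30 bases from the annotated gene start, and CCAAT at position -36. The Cct7 window carried CCAAT 3 times in the reverse orientation, at positions -187, -125 and -95. In the Klf4 window the E-box stood at position -182, next to a reversed SP/KLF motif at position -189. A match of letters is a description and does not show that a factor was bound.

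For constant regions without an annotated gene start, the central 200 bases of 2 regions are shown on the plus strand of mm10, one inside an intron of Ptpn14, a protein tyrosine phosphatase gene (chr1:189771802-189772001), and one inside an intron of Mapt, the gene of tau (chr11:104294497-104294696). They were of 6 such regions named by rank and were chosen for printing after their letters were seen, since both held an E-box, in capitals. They had 7 and 3 CpG dinucleotides. Both regions covered 2 starts of coding transcripts other than the gene start.
Ptpn14 intron: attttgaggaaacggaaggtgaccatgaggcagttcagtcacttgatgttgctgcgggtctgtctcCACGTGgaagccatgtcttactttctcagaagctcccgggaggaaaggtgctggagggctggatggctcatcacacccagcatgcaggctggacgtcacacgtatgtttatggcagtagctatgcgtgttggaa
Mapt intron: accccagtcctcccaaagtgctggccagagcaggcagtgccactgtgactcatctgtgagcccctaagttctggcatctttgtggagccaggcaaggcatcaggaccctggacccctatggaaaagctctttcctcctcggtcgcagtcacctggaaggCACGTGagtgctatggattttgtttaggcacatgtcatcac

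Another set of sequences belongs to microRNA genes that lay inside constant regions. The Mir290 to Mir295 cluster, which encodes the main microRNAs of mouse pluripotent cells, filled part of the region chr7:3197215-3224878, and Mir21a, a microRNA gene active in many epithelial and transformed cells, lay in chr11:86572220-86596451. Mir21a was chosen after its values were seen. The mature forms follow, with the seed (bases 2 to 8) in capitals. The seed AAGUGCU was shared by 3 of them, miR-291a-3p, miR-294-3p and miR-295-3p, while miR-290a-3p had AAGUGCC and miR-291b-3p AAGUGCA.
miR-291a-3p: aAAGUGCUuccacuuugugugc
miR-294-3p: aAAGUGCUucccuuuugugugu
miR-295-3p: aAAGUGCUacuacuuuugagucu
miR-290a-3p: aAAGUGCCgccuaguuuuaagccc
miR-291b-3p: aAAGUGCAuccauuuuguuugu
miR-21a-5p: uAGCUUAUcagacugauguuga

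The H3K27ac lists differed in length. The Oct4+ libraries listed 38619, 65131 and 8574 peaks in replicates 1 to 3, the DP libraries 10957, 3079 and 12244, and the Pdgfra+ libraries 4792, 7128 and 4861. No source used here gives read numbers, so the depth is unknown and a region that a library does not list can still carry the mark. The constant regions took up 5.59, 3.42 and 21.5% of the Oct4+ peaks, 16.0, 54.0 and 14.3% of the DP peaks, and 34.4, 25.6 and 33.8% of the Pdgfra+ peaks. The shortest list, that of DP replicate 2, was thus mostly made of constant regions, and the longest list held the smallest share of them.

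Merged regions were most often listed by a single library (51977 regions) and became fewer up to 7 libraries (1096 regions), while 1158 regions were listed by 8 libraries and 1545 by 9. Constant regions were wide, with a median of 7431 bp (range 2889 to 69575 bp), against 6928 bp for regions in 8 libraries and 4260 bp for the 25441 regions in 2 to 8 libraries, which are called partial regions here. A shared stretch of at least 1 base under the peaks of all 9 lists was present in 1455 constant regions (94.2%), with a median length of 1888 bp over all 1545. In the other constant regions the lists met only through chains of overlapping peaks, so that the peaks of the libraries need not be at the same place. Of the regions named below, those at Fam129b, Tns3, Gm48591, Arhgap10, Ptpn21 and Cystm1, the region over Ccdc124 and Kcnn1 and that over Cdca4 and Clba1 were of this kind.

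**Figure D1:**
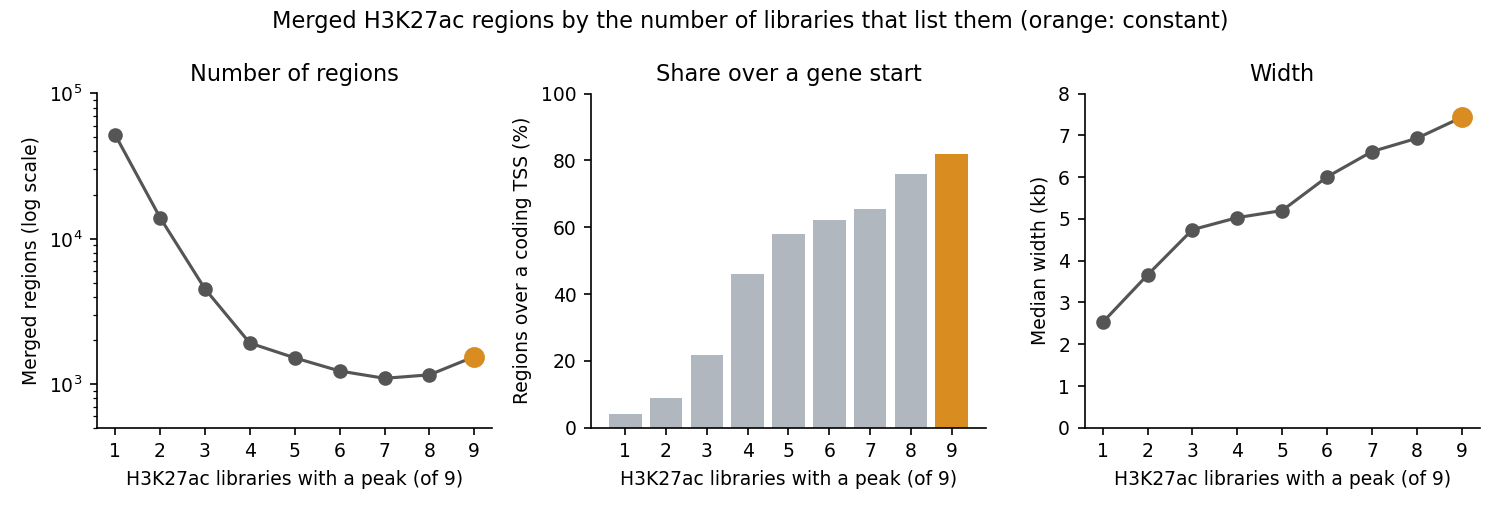
Merged H3K27ac regions by the number of the 9 H3K27ac libraries with a peak in them (x axes), with the number of regions on a log axis (left), the percentage over a protein-coding TSS (middle) and the median width in kb (right). Constant regions are in orange. They number 1545, lie over a TSS in 81.9% of cases and have a median width of 7431 bp, the highest share and width of the 9 classes.

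The strength of the H3K27ac peaks is given as a description, since these peaks chose the regions. It was read as the percentile of a region's total signal (coverage summed over the bases of its peaks) among the single peaks of the same library. A region held 1.06 to 1.44 peaks on average, depending on the library. The median percentile of the constant regions was 94.6, 97.0 and 78.4 in the Oct4+ libraries, 88.6, 61.7 and 88.1 in the DP libraries and 69.1, 83.1 and 75.7 in the Pdgfra+ libraries. Just inside the rule, the median over constant regions of the lowest percentile in any library was 41.8. For the 1158 regions just outside it, with a peak in 8 of 9 libraries, the same median was 22.2 over the 8 libraries. A lowest percentile under 5 was found for 91 constant regions (5.89%) and for 139 regions in 8 libraries (12%).

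Which library was missing from the regions in 8 of 9 was uneven. DP replicate 2 was the missing library for 489 of them and Oct4+ replicate 3 for 446, the next being Pdgfra+ replicate 1 with 142. The other 6 libraries were missing from 0 to 36 regions each. Without DP replicate 2, 2034 regions were listed by all of the other libraries, and without Oct4+ replicate 3, 1991. When each list was cut to its 3079 strongest peaks, 409 regions were constant, and when each was cut to its upper 50%, 607 were constant, all of them inside the 1545.

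Most constant regions covered a gene start. A protein-coding transcription start site (TSS), taken as the annotated start of the gene, lay in 1266 of them (81.9%, 95% Wilson interval 80.0 to 83.8% for counting error only). The share was 75.8% for regions in 8 libraries, 24.99% for partial regions and 4.01% for regions in 1 library. A single TSS lay in 912 constant regions (59.0%) and 2 or more in 354 (22.9%). A start of another kind of gene was the only start in 90 regions (5.83%), and 189 regions (12.2%) covered no gene start. Where every transcript of a protein-coding gene was counted, 90.3% covered a start. The stretches of at least 200 bases common to all 9 lists numbered 1522, of which 71.75% covered a TSS, and a region can hold several such stretches.

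On the chromosomes, 149 constant regions (9.64%) lay on chromosome 11, which has 7.47% of the protein-coding genes. Chromosome X has 948 protein-coding genes (4.32%) and held 4 constant regions (0.259%), those of Usp9x, a deubiquitinase, Ddx3x, an RNA helicase, Cdk16, a kinase, and Tbl1x, a corepressor subunit. The low share on chromosome X was not particular to the constant regions, since 442 of all merged regions (0.560%) and 3 of the regions in 8 libraries (0.259%) lay there.

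The constant regions held the TSS of 1681 of 21938 protein-coding genes (7.66%), and the gene groups were read against this share. The CCT chaperonin, translation factor, ribosomal protein and splicing factor lists stood above it, and the cytosolic tRNA synthetases did not. The lists were chosen with earlier results of these data known. Regions of 7 or 8 libraries held 2008 of the 21938 genes, and 13 of 54 translation factors and 12 of 74 splicing factors. A high share of these lists was thus not particular to the constant regions. Of the CCT chaperonin, 4 of 7 subunit genes were in constant regions (57.1%: Cct7, Cct5, Cct3 and Tcp1). Of the translation factors, 22 of 54 were (40.7%), led in the signal ranking by Eif3h and Eif2b4. Of the cytosolic ribosomal protein genes, 28 of 79 were (35.4%), led by Rpl18, Rpl23a and Rpl7a, and 22 more lay in regions of 7 or 8 libraries. Of the cytosolic tRNA synthetases, Farsb alone was in a constant region (1 of 20, or 5%), and 8 others were in regions of 7 or 8 libraries. Splicing factors had 30 of 74 (40.5%), among them Hnrnpk, Hnrnpa0 and Sf3a2. RNA polymerase II subunits had 3 of 13 (23.1%: Polr2e, Polr2l and Polr2h), and long noncoding hosts of snoRNAs 4 of 15 (26.7%: Snhg15, Snhg9, Snhg10 and Snhg1).

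Mitochondrial and other housekeeping groups were closer to the background. The respiratory chain and ATP synthase genes had 16 of 85 in constant regions (18.8%, led by Ndufa11 and Uqcrh) and the mitochondrial ribosomal protein genes 11 of 78 (14.1%, led by Mrpl40). Proteasome subunits had 4 of 49 (8.16%: Psmd1, Psmc5, Psme4 and Psmd14), which is near the 7.66% of all genes. Of 67 replication-dependent histone genes 3 were (4.48%), all from a single region with Hist1h1a, Hist1h3a and Hist1h4a. Genes of one complex therefore did not share a single class, and no list had all of its members among the constant regions.

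Immediate early genes, which respond to growth signals within minutes, had 8 of 20 members in constant regions (40%): Junb, Ier2, Zfp36, Jun, Klf6, Jund, Btg2 and Egr1. Cell cycle regulators had 6 of 30 (20%): Mcm2 and Mcm4 of the replicative helicase, Cdc20 of the anaphase-promoting complex, Ccne2, a cyclin, and Trp53 and its target Cdkn1a. Of the Zfp genes, which encode zinc finger proteins, 39 of 391 were (9.97%). None of 39 Hox genes and none of 1093 olfactory receptor genes was in a constant region, and 33 and 1050 of them had no H3K27ac region at the TSS in any library.

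Most lineage genes lay outside the constant regions, as did most genes of any kind, and beside the 7.66% of all genes these short lists were not read as different. None of 25 endoderm genes was in a constant region, and 8 were in regions of 7 or 8 libraries. Of 25 pluripotency genes 3 were (12%): Sall4, Klf4 and Tbx3. Of 24 trophectoderm genes with an annotation 4 were (16.7%): Fgfr2, a growth factor receptor, Klf6, which is also on the immediate early list, Tead4, the partner of YAP, and Elf3, an epithelial ETS factor. The study also names Tbx3 and Fgfr2 as candidate early primitive endoderm genes, so the endoderm count depends on how the lists were drawn. The genes that separate the sorted states were in no constant region. The TSS of Pou5f1 had an H3K27ac peak in 3 Oct4+, 1 DP and 1 Pdgfra+ libraries, and that of Nanog in 3, 0 and 0. The TSS of Pdgfra had one in 0, 2 and 3 libraries and that of Gata6, an endoderm factor, in 2, 3 and 3.

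**Figure D2:**
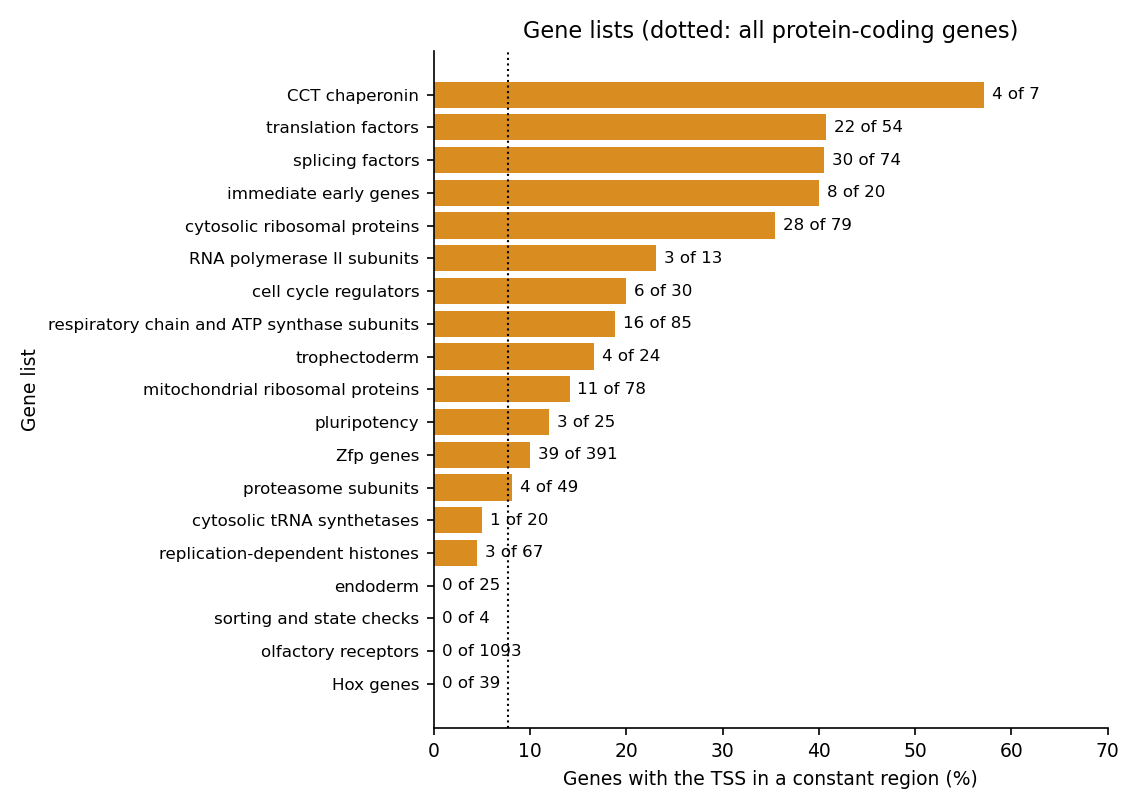
Percentage of the genes of each list (y axis) whose TSS lies in a constant region (x axis), with counts beside the bars and the 7.66% of all protein-coding genes as a dotted line. The CCT chaperonin has 4 of 7 genes in constant regions, while the endoderm, Hox and olfactory receptor lists have none.

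Constant genes often shared their start region with a neighbour. A gene on the opposite strand that began within 1 kb was present for 308 of the 1681 genes (18.3%), against 18.8% of genes in regions of 7 or 8 libraries, 12.8% of genes in partial regions, 1.42% of genes without an H3K27ac region and 6.79% of all protein-coding genes. Examples were Cct7 with Pradc1, Trp53 with Wrap53 and Mcm2 with Tpra1, whose starts lay in the same constant regions. In such regions the signal of the neighbours cannot be told apart.

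The promoters were rich in CpG. RefSeq windows of 300 bases ran from 250 before to 50 after the start. Such a window was available for 1351 of 1676 gene symbols in constant regions, and for 1314 of these the window itself lay in one. In all, 1362 windows lay in a constant region, including some of genes whose annotated start lay elsewhere. They had a median of 25 CpG dinucleotides and 64% G+C, against 24 CpG in windows of regions in 7 or 8 libraries, 14 in all 16498 windows and 4 in windows outside H3K27ac regions. The ratio of observed to expected CpG was over 0.6 in 86.3% of them and in 50.1% of all windows.

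Several promoter motifs were also more frequent in the constant windows than in all windows. Each motif given here as more frequent contains CG, and those given as less frequent or near the background do not. Constant windows had a median of 25 CpG against 14 in all windows, and the part of base composition in these shares was not tested. GGGCGG (SP/KLF) was in 72.2% of constant windows, 74.0% of those in 7 or 8 libraries, 26.6% of those without an H3K27ac region and 48.2% of all. CCGGAAGT (ETS) was in 9.84% of constant and 5.55% of all windows, AAGATGGCG (YY1) in 4.77 and 2.02%, GCGCATGCG (NRF1) in 4.77 and 2.52%, and CACGTG (E-box) in 12.2 and 8.09%. TATAAA was less frequent in constant windows (5.14%) than in all (12.9%) or in those without H3K27ac (20.1%). CCAAT (NFY) was near the background, in 36.4% of constant and 38.8% of all windows. The lineage motifs ATGCAAAT (the POU octamer) and AGATAAG (the motif of GATA factors) were in 1.25 and 1.10% of constant windows and in 1.64 and 2.63% of all. In each of these the constant windows and those in 7 or 8 libraries were within 3 percentage points of each other.

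Gene groups differed in these letters. Of 24 splicing factor windows, 20 held GGGCGG and 14 CCAAT, and the Hnrnpa0 window printed above held both. Of 21 cytosolic ribosomal protein windows, 15 held GGGCGG and 6 CCGGAAGT, and of 17 translation factor windows 4 held CCGGAAGT. Of 11 respiratory chain windows, 3 held GGGCGG and 3 GCGCATGCG. Repeats were not scarce in the constant regions as a whole, with a median of 19.8% of bases masked as repeats against 19.9% in partial regions.

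Within the regions, the H3K27ac maximum lay close to the gene start. In the 912 constant regions with a single protein-coding TSS, the median distance between the TSS and the H3K27ac maximum was 283.5 to 332.5 bp over the 9 libraries (mean 310.2 ± 17.8, SD, n = 9), and 82.7 to 84.7% of maxima lay within 1 kb. The maximum was downstream of the TSS in 65.9 to 71.2% of regions. The 3 populations overlapped in all of these values.

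H3K4me1 maxima lay farther out, at a median of 2698 to 6168 bp from the TSS (mean 4021 ± 1149, SD, n = 9), and 8.92 to 27.9% of them were within 1 kb. These values rest on the regions that a library listed for H3K4me1, which were 56 to 418 of the 912. The H3K27ac distance within those regions alone was not computed, so the 2 marks are compared over unlike sets. A peak of H3K4me1 maxima stood in the 250 bp just upstream of the TSS in part of the libraries. That bin held 3.20, 2.94 and 2.82% of the maxima in the Oct4+ libraries, 3.97, 6.94 and 7.23% in the DP libraries and 1.24, 1.79 and 11.7% in the Pdgfra+ libraries. Pdgfra+ replicate 3 and DP replicates 2 and 3 were high, and the other replicates of the same populations were not. Those other replicates also listed fewer regions, so their low values rest on few maxima. Oct4+ replicate 2, with 2.94%, listed 374 regions, more than DP replicate 3 (318) and Pdgfra+ replicate 3 (326). The part of list length was not tested.

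**Figure D3:**
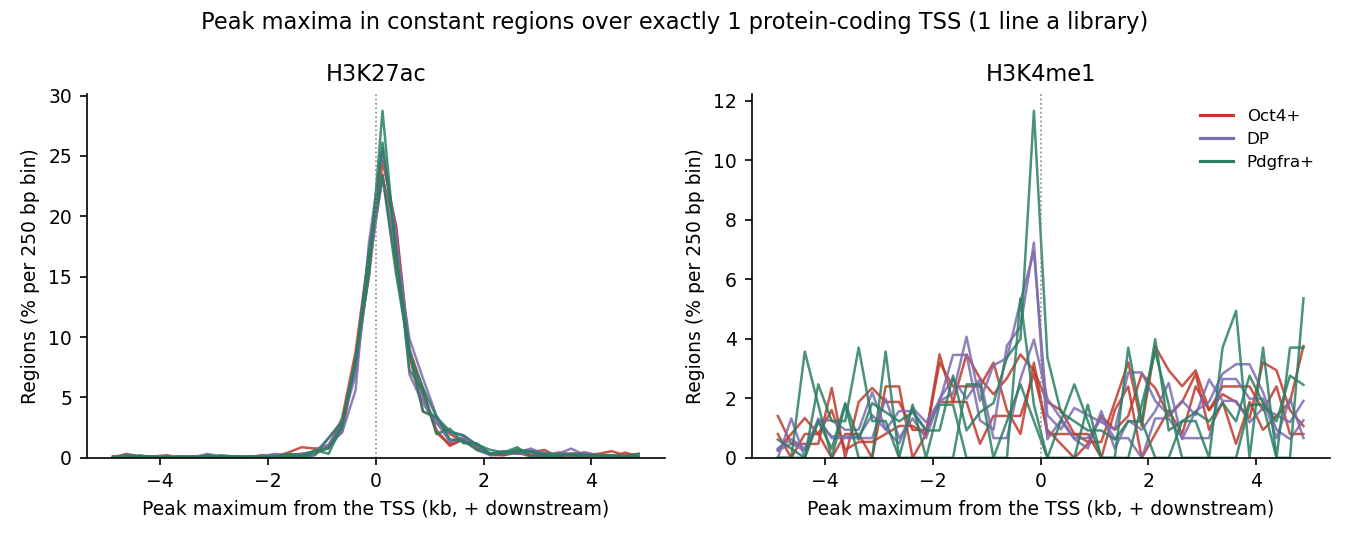
Distribution of the position of the peak maximum relative to the TSS (x axis, kb, positive downstream) in constant regions over exactly 1 protein-coding TSS, as the percentage of regions per 250 bp bin (y axis) for H3K27ac (left) and H3K4me1 (right), with a line for each of 9 libraries. H3K27ac maxima gather just downstream of the TSS in all 9 libraries, whereas H3K4me1 maxima are spread out, with 11.7% in the bin just upstream in the highest Pdgfra+ library.

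The other 3 marks were measured in libraries that the rule had not used. Their lists ran from 1074 to 16057 peaks for H3K4me1, 1143 to 8672 for H3K27me3 and 5322 to 29970 for H3K9me3. A longer list can mark more regions. H3K4me1 peaks were listed in 17.5, 47.6 and 28.3% of the constant regions by the Oct4+ libraries, in 22.7, 56.2 and 42.1% by the DP libraries and in 12.8, 9.06 and 43.7% by the Pdgfra+ libraries. The means were 31.1 ± 15.3, 40.3 ± 16.8 and 21.9 ± 19% (SD, n = 3 each), and the populations overlapped. An exact permutation test of the F statistic over 1680 assignments gave an adjusted p of 0.518 (n = 3 per population).

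H3K4me1 was more frequent in constant than in partial regions in 9 of 9 libraries, with means of 31.1 and 15.5% (difference 15.6 ± 7.92 percentage points, SD, n = 9). The exact two-sided sign-flip permutation test gave an adjusted p of 0.00391, the smallest that 9 libraries allow (n = 9). A partial region need not have an H3K27ac peak in the population of the library that is counted. Each DP and Pdgfra+ H3K27ac list held at most 12244 peaks, so none of them could list most of the 25441 partial regions. For all 3 marks in these populations, the contrast is thus partly one of listed against unlisted H3K27ac. Constant regions were also wider, and the size of the difference depended on the setting. It was 7.301 points in a window of 1 kb at the region centre, 7.785 with equal numbers of H3K4me1 peaks per library and 6.264 with constant regions from H3K27ac lists of equal length, each in 9 of 9 libraries. Against the regions in 7 or 8 libraries the difference was 0.49 points (higher in 3 of 9 libraries, adjusted p = 0.660 in the same exact test), so a difference from the regions nearest to the rule was not shown. Within the constant regions H3K4me1 was more frequent away from a TSS, in 55.4% of regions without a protein-coding TSS and in 25.7% of those with one, a difference seen in 9 of 9 libraries. Of the constant regions, 485 (31.4%) had no H3K4me1 peak in any library and 58 (3.75%) had one in all 9.

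H3K27me3 was rare. It was listed in 0.194, 0.453 and 2.14% of constant regions by the Oct4+ libraries, 1.36, 2.40 and 1.17% by the DP libraries and 0.129, 0.259 and 0.777% by the Pdgfra+ libraries. The means were 0.928 ± 1.05, 1.64 ± 0.661 and 0.388 ± 0.343% (SD, n = 3 each), with an adjusted p of 0.518 in the exact permutation test between populations. DP lay above Pdgfra+ in every library, a split whose exact p of 0.1 (n = 3 and 3) is the smallest this design allows and 0.675 after adjustment over 9 pairs. The DP lists held 3798, 8672 and 6418 H3K27me3 peaks and the Pdgfra+ lists 1143, 2841 and 6151. The part of list length in this pair was not tested.

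The H3K27me3 share was lower in constant than in partial regions in 9 of 9 libraries, at 0.985 against 3.56% (difference -2.57 ± 1.46 points, adjusted p = 0.00391, exact sign-flip permutation test, n = 9). Over a protein-coding TSS the shares were 0.983 and 6.997% (difference -6.01 points), and with equal numbers of H3K27me3 peaks per library the difference was -0.904 points. The mean difference was also below 0 against the regions in 7 or 8 libraries, at -1.92 ± 1.60 points (SD, adjusted p = 0.0117, exact sign-flip permutation test, n = 9). Its size was uneven between populations. The shares in regions of 7 or 8 libraries were 1.508, 3.15 and 7.365% in Oct4+ and 3.15, 5.28 and 3.327% in DP. In Pdgfra+ they were 0.133, 0.444 and 1.775%, close to the constant regions in replicate 1, where 2 constant regions had a peak. Over all 9 libraries, 63 constant regions (4.08%) had an H3K27me3 peak in at least 1, and 7 had one in 5 or more.

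H3K9me3 was listed in 6.47, 5.18 and 4.40% of constant regions by the Oct4+ libraries, 2.98, 5.37 and 3.24% by the DP libraries and 6.28, 2.01 and 4.47% by the Pdgfra+ libraries. The means were 5.35 ± 1.05, 3.86 ± 1.31 and 4.25 ± 2.14% (SD, n = 3 each), and the populations overlapped (adjusted p = 0.518, exact permutation test, n = 3 per population). The share was 4.49% in constant and 6.58% in partial regions, lower in 9 of 9 libraries (difference -2.09 ± 1.28 points, adjusted p = 0.00391, exact sign-flip permutation test, n = 9).

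The direction was not the same in every comparison. In a window of 1 kb at the centre of all regions the share was again lower in constant regions, 1.29 against 4.36%, in 9 of 9 libraries (difference -3.07 points, adjusted p = 0.00391, exact sign-flip permutation test, n = 9). With equal numbers of H3K9me3 peaks per library the difference was -0.405 points. Among regions over a protein-coding TSS the H3K9me3 share was higher in constant regions, 3.07 against 2.24%, and among regions over none it was higher as well, 10.9 against 8.03%, each in 9 of 9 libraries. Constant regions over a TSS were wider than partial ones, with medians of 7010 and 4412 bp, and so were those over none, with 10075 and 4202 bp. With the window of 1 kb applied within each of these classes, a combination added after the data were seen, the shares were 0.650 and 0.774% over a TSS (adjusted p = 0.0547) and 4.18 and 5.55% over none (adjusted p = 0.106, exact sign-flip permutation tests, n = 9). The part of the TSS and of the width in these differences was not tested further.

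Over the 3 marks, 454 constant regions (29.4%) had none of them in any library. H3K9me3 was present in at least 1 library in 181 regions (11.7%), in 5 or more in 47 (3.04%) and in all 9 in 16, and 9 regions had both H3K9me3 and H3K27me3 in at least 1 library. The populations were mixtures of cells, and marks listed in the same region need not be on the same chromosomes.

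**Figure D4:**
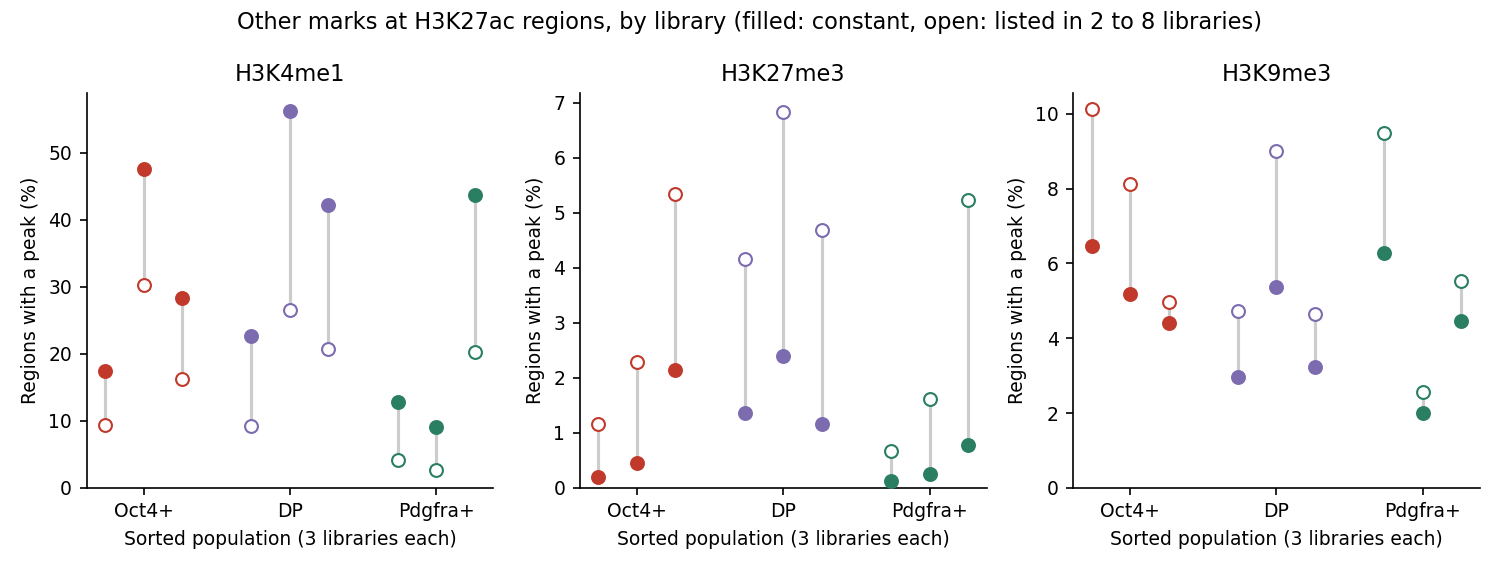
Percentage of regions with a peak of H3K4me1, H3K27me3 or H3K9me3 (y axis) in each of 3 libraries per population (x axis), for constant regions (filled) and for partial regions listed in 2 to 8 H3K27ac libraries (open), joined for each library. Filled points are above open ones in 9 of 9 H3K4me1 libraries and below them in 9 of 9 libraries of H3K27me3 and of H3K9me3.

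The H3K27ac signal of the constant regions was also read by population. Signal was expressed as the log2 total signal of a region minus the median of the 1545 regions in the same library, so that 0 is the library's typical constant region and a depth that scales all regions alike cancels. Total signal sums the listed peaks of a region, and the mean number of peaks per constant region was 1.396, 1.441 and 1.191 in the Oct4+ libraries, 1.13, 1.08 and 1.13 in the DP libraries and 1.07, 1.18 and 1.06 in the Pdgfra+ libraries. Centring does not remove a difference in peak number that is particular to a region, and its part in the values was not tested. A region's total also cannot fall below the weakest peak of a list. The lowest totals were 6021, 5460 and 5716 in Oct4+, 13683, 13728 and 14586 in DP and 27115, 8736 and 28044 in Pdgfra+. Median totals of constant regions, in the same order, were 23104, 25551 and 11251, then 44720, 19859 and 49949, then 43826, 19224 and 51126. Centred values could thus fall lower in Oct4+ replicates 1 and 2 than in any DP or Pdgfra+ library. H3K27ac chose the regions, so these values are given without a test. The 3 Oct4+ and 3 Pdgfra+ values did not overlap in 601 of 1545 regions (38.9%), of which 268 were higher in Oct4+. Oct4+ and DP did not overlap in 517 (33.5%), and DP and Pdgfra+ in far fewer, 116 (7.51%). With 3 values against 3, a lack of overlap at a region does not by itself show a difference. The 116 regions are not read as different between DP and Pdgfra+. On the maximum signal of the highest peak in place of the total, these numbers were 399, 387 and 129. In bulk libraries such a difference can reflect the share of cells with the mark or the amount per cell, which cannot be told apart.

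The differences were mostly small. Between Oct4+ and Pdgfra+ they ran from -2.09 to 3.10 on the log2 scale, with the middle 50% of regions between -0.42 and 0.30, and between DP and Pdgfra+ from -0.73 to 0.91. Across the 1545 regions, which are not independent replicates, the centred values of 2 libraries correlated with Pearson's r of 0.705 to 0.877 between DP and Pdgfra+, 0.754 to 0.818 within Pdgfra+ and 0.711 to 0.849 within DP. The range was 0.651 to 0.816 within Oct4+, 0.315 to 0.646 between Oct4+ and DP and 0.295 to 0.588 between Oct4+ and Pdgfra+. Region width contributes to total signal in every library, so part of each correlation is shared by construction.

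The 10 regions with the highest median percentile of total signal were long. First was a region of 47751 bp over the starts of Fam25c, Mmrn2 and Sncg (chr14:34335913-34383663), the last of which encodes gamma-synuclein, with centred values of 3.57, 3.45 and 3.66 in Oct4+, 3.14, 2.83 and 2.89 in DP and 3.02, 2.76 and 2.98 in Pdgfra+. It was high in all 9 libraries and had H3K4me1 peaks in all 9. Next were regions at Lmna, the gene of lamin A and C (chr3:88486532-88518830), Pmepa1, an inhibitor of TGF-beta signalling (chr2:173242765-173288199), Myh9 (chr15:77808727-77844577) and Fam129b (chr2:32866506-32909657). The other 5 were at Neat1, the long noncoding RNA of paraspeckles (chr19:5834652-5854198), Pgs1, an enzyme of cardiolipin synthesis (chr11:117985580-118017270), the kinase gene Src (chr2:157408889-157439957), Mcl1 (chr3:95656724-95685397) and the intron of Ptpn14 (chr1:189752870-189790933). H3K4me1 was listed in 8 or 9 libraries at each of the 10, and H3K27me3 in none.

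Several of these were even across populations and others were not. Mcl1 had centred means of 2.07 ± 0.21 in Oct4+, 2.15 ± 0.19 in DP and 2.02 ± 0.17 in Pdgfra+ (SD, n = 3 each), and the groups overlapped. Lmna had values of 1.57, 1.88 and 1.19 in Oct4+, 2.52, 2.91 and 2.78 in DP and 2.87, 2.70 and 2.69 in Pdgfra+. Lmna was thus lower in all Oct4+ libraries, with a difference of -1.21 from Pdgfra+ on total signal and -0.98 on maximum signal. Fam129b had 1.74, 2.04 and -0.83 in Oct4+ against 2.41 to 2.64 in Pdgfra+, and the low value of Oct4+ replicate 3 set most of its difference of -1.58. The total signal of that replicate there, 6349, was near the lowest of its list, 5716. At Src the H3K9me3 peaks were listed in 0 Oct4+, 3 DP and 3 Pdgfra+ libraries.

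**Figure D5:**
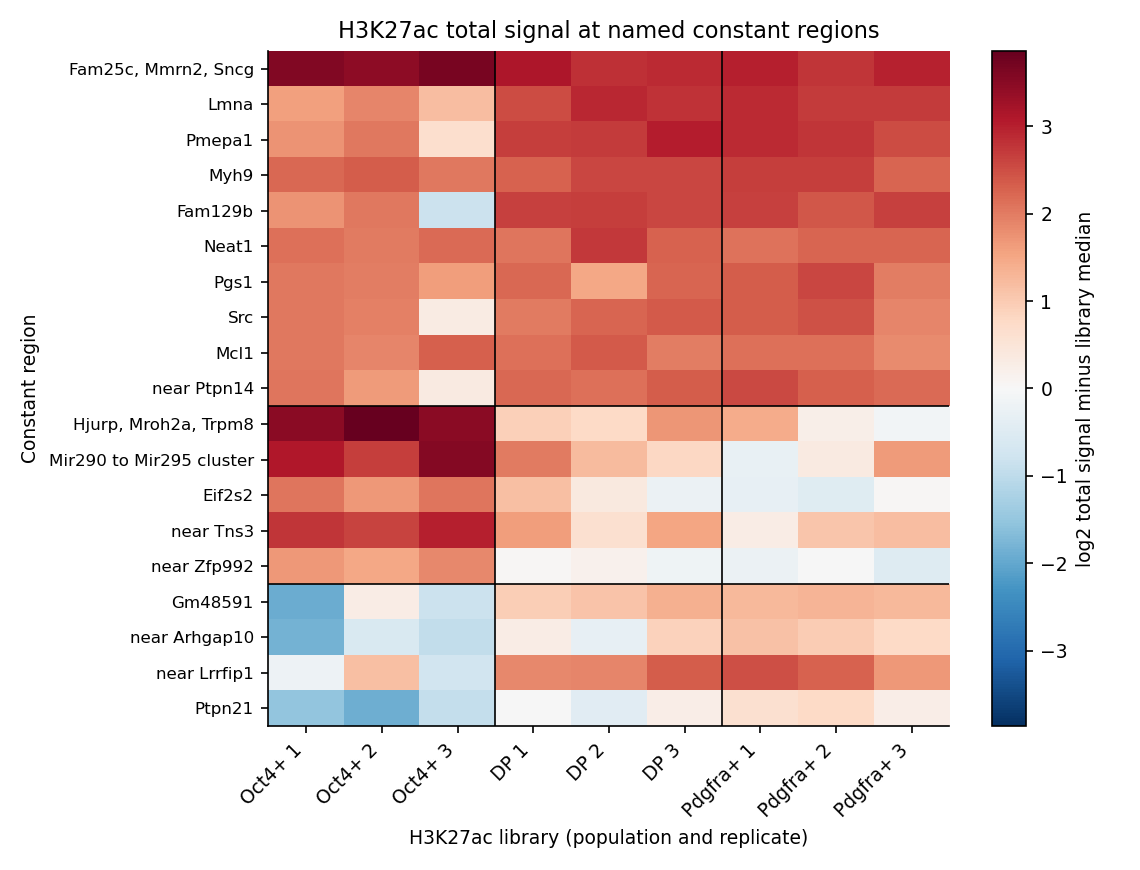
Centred log2 H3K27ac total signal (colour scale, log2 total signal minus the library median over constant regions) of named constant regions (y axis) in each of 9 libraries (x axis). The upper 10 have the highest signal rank, the next 5 were selected as highest in Oct4+ relative to Pdgfra+ and the last 4 are among the lowest. The Hjurp region reaches 3.86 in an Oct4+ library and -0.11 in a Pdgfra+ library.

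The regions most above Pdgfra+ in Oct4+, taken from the 601 without overlap, included the microRNA cluster printed above. The Mir290 to Mir295 region had centred values of 3.08, 2.66 and 3.55 in Oct4+, 2.01, 1.23 and 0.81 in DP and -0.29, 0.35 and 1.63 in Pdgfra+. The populations fell in the order Oct4+, DP, Pdgfra+ by their means of 3.10 ± 0.44, 1.35 ± 0.61 and 0.56 ± 0.98 (SD, n = 3 each), with Pdgfra+ replicate 3 inside the DP range. The difference between Oct4+ and Pdgfra+ was 2.53 on total and 0.87 on maximum signal. The region at Mir21a went the other way, with 0.94, 1.17 and 0.52 in Oct4+, 1.64, 2.19 and 2.42 in DP and 2.22, 2.26 and 1.94 in Pdgfra+. Its difference was -1.27 on total and -0.68 on maximum signal. In all, 59 of 1072 microRNA genes lay in 45 constant regions.

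The widest constant region had the highest difference of all. It covered 69575 bp over the starts of Hjurp, a histone chaperone of the centromere, Mroh2a and Trpm8, a cold-sensing channel (chr1:88223163-88292737), with 3.49, 3.86 and 3.48 in Oct4+, 0.93, 0.77 and 1.70 in DP and 1.43, 0.22 and -0.11 in Pdgfra+. The difference of 3.10 on total signal was 0.62 on maximum signal, where the populations overlapped. H3K9me3 was listed there in 9 of 9 libraries, and H3K27me3 in 0 Oct4+, 3 DP and 3 Pdgfra+ libraries. Eif2s2, which encodes the beta subunit of the initiation factor eIF2 (chr2:154889338-154907282), had 2.08, 1.68 and 2.07 in Oct4+ and -0.31, -0.48 and 0.04 in Pdgfra+. Its difference of 2.19 on total signal was 0.41 on maximum signal, where the populations overlapped.

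At 2 further regions of this kind the maximum moved with the total. An intron of Tns3, a focal adhesion gene (chr11:8564569-8598308), had 2.77, 2.62 and 2.99 in Oct4+ and 0.30, 1.06 and 1.195 in Pdgfra+, with differences of 1.94 on total and 0.54 on maximum signal. An intron shared by Gm26573 and Zfp992, a zinc finger gene (chr4:146453415-146461498), had 1.67, 1.504 and 1.86 in Oct4+, 0.06, 0.16 and -0.15 in DP and -0.22, -0.01 and -0.49 in Pdgfra+. Its differences of 1.92 on total and 1.89 on maximum signal were nearly equal, and H3K9me3 was listed in 8 of 9 libraries. Reads that match several places can be assigned among copies of such zinc finger clusters, and no source used here says how the authors treated them.

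Of the regions most below Pdgfra+ in Oct4+, 4 are described, of which 2 lay in introns, 1 at a noncoding gene and 1 at a coding start. Gm48591, a noncoding gene near Rassf3 (chr10:121452075-121467412), had -1.92, 0.29 and -0.84 in Oct4+ and 1.24, 1.31 and 1.24 in Pdgfra+ (difference -2.09, and -0.78 on maximum signal). An intron of Arhgap10 (chr8:77424294-77439633) had -1.82, -0.60 and -0.94 in Oct4+ and 1.13, 0.99 and 0.76 in Pdgfra+ (difference -2.08, and -0.60 on maximum signal). The totals of Oct4+ replicates 1 and 3 were near the lowest of their lists, at 6094 and 6279 for Gm48591 and 6525 and 5876 for Arhgap10. An intron of Lrrfip1 (chr1:91038415-91070592) had -0.19, 1.17 and -0.74 in Oct4+ and 2.49, 2.28 and 1.68 in Pdgfra+ (difference -2.07, and -0.46 on maximum signal). In these 3 regions the Oct4+ libraries differed among themselves by over 1 log2 unit, and the DP values were near those of Pdgfra+ except at Arhgap10, where they were 0.28, -0.33 and 0.88, the last inside the Pdgfra+ range.

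The coding start was that of Ptpn21, a tyrosine phosphatase gene (chr12:98731433-98740268). Ptpn21 had -1.54, -1.89 and -0.93 in Oct4+, -0.03, -0.45 and 0.27 in DP and 0.63, 0.78 and 0.26 in Pdgfra+, a difference of -2.01 on total and -0.91 on maximum signal. Every Oct4+ value was below every DP and every Pdgfra+ value. The Oct4+ totals of 7955, 6904 and 5921 were near the lowest totals of those lists, so the size of the difference is uncertain.

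Lineage and response genes inside constant regions also differed in signal. Sall4, a pluripotency factor, had centred means of 1.11 ± 0.15, 0.56 ± 0.32 and 0.48 ± 0.14 in Oct4+, DP and Pdgfra+ (SD, n = 3 each). Klf4 had 0.15 ± 0.29, 0.75 ± 0.02 and 0.81 ± 0.16, and Tbx3, a T-box factor, -0.70 ± 0.33, 0.06 ± 0.45 and 0.44 ± 0.23. The difference of Oct4+ from Pdgfra+ was 0.64 for Sall4, -0.66 for Klf4 and -1.14 for Tbx3 on total signal. On maximum signal it was 0.15, 0.03 and 0.20 with overlap in all 3, so the direction of Klf4 and Tbx3 depended on the measure. Fgfr2 had 1.64 ± 0.10, 0.95 ± 0.16 and 0.49 ± 0.47, a difference of 1.15 on total and 0.70 on maximum signal without overlap, in a region that also covered the start of Ctbp2. All 8 immediate early genes had lower mean total signal in Oct4+ than in Pdgfra+, with differences from -0.17 (Jund) to -0.995 (Klf6), and 6 had no overlap, against 38.9% of all constant regions. On maximum signal the difference ran from 0.33 (Jund) to -0.64 (Egr1), and Egr1 alone of the 8 was without overlap.

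Of the constant regions of highest rank without any gene start, 5 are described. Each had its centre in an intron, those of Ptpn14, Shb, an adaptor of tyrosine kinases (chr4:45471318-45498567), Lrrfip1, Cystm1 (chr18:36373852-36422230) and Mapt (chr11:104281412-104307781). Their edges lay 24.6 (Ptpn14) to 50.02 kb (Mapt) from the nearest annotated start of a protein-coding gene. Starts of other coding transcripts lay in 4 of the 5, with 2 at Ptpn14, 4 at Shb, 5 at Lrrfip1 and 2 at Mapt. The 5 regions had H3K4me1 peaks in 8 or 9 libraries. The Mapt intron had 2.69, 2.504 and 2.75 in Oct4+, 1.67, 1.87 and 1.10 in DP and 0.98, 0.75 and 1.63 in Pdgfra+, so that Oct4+ was above both others by 1.10 and 1.53. H3K9me3 was listed there in 1 Oct4+, 3 DP and 3 Pdgfra+ libraries. The Cystm1 intron had overlapping groups, with means of 2.21 ± 0.55 in Oct4+, 1.45 ± 0.84 in DP and 1.75 ± 0.76 in Pdgfra+ (SD, n = 3 each).

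As a class, the 189 regions without a gene start had a median width of 9659 bp and a median of 6 H3K4me1 libraries, against 7010 bp and 1 library for regions over a protein-coding TSS. H3K4me1 was listed in at least 5 libraries in 62.4% and 21.0% of them. A start of an annotated coding transcript other than the gene start lay in 88 of the 189. Values did not overlap between Oct4+ and Pdgfra+ in 43.4% of the regions without a gene start and in 37.7% of those over a TSS, beside 38.9% of all.

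H3K27me3 reached at most 7 of 9 libraries. The region over Ccdc124 and Kcnn1, a potassium channel gene (chr8:70862260-70881532), had it in 2 Oct4+, 3 DP and 2 Pdgfra+ libraries together with H3K4me1 in all 9. Egr1, an immediate early gene (chr18:34858151-34863542), had it in 3 Oct4+, 3 DP and 1 Pdgfra+ libraries and had no H3K4me1. The H3K27ac values of Egr1 were -0.77, -0.32 and -0.70 in Oct4+, 0.04, -0.02 and -0.14 in DP and 0.16, 0.10 and -0.20 in Pdgfra+, with Oct4+ below both others. A region over Cdca4 and Clba1 (chr12:112802824-112834442) and an intergenic region 21.5 kb from the start of Egfl7 (chr2:26549299-26558516) each had it in 1 Oct4+, 3 DP and 2 Pdgfra+ libraries. In all 5 of these regions, the Hjurp region included, each of the 3 DP libraries listed H3K27me3. The regions were selected for the most H3K27me3 libraries, and DP replicates 2 and 3 had the longest H3K27me3 lists.

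H3K9me3 in 9 of 9 libraries was found at 16 constant regions. The 5 of highest H3K27ac rank were at Atf1, a factor of the CREB family (chr15:100223833-100260310), the pseudogene Pisd-ps2 (chr17:3074887-3086616), Hjurp with its neighbours, 2410024N13Rik (chr3:103198755-103219929) and an intergenic region 52.2 kb from the start of Ccny (chr18:9502340-9510425). H3K27ac at Atf1 was 2.44, 2.65 and 2.68 in Oct4+, 1.51, 0.90 and 1.33 in DP and 1.04, 1.01 and 1.04 in Pdgfra+. At Pisd-ps2 it was 2.39, 2.58 and 2.69 in Oct4+, 1.14, 1.42 and 1.197 in DP and 1.36, 1.42 and 1.12 in Pdgfra+. In both, Oct4+ was above the other populations without overlap, by 1.56 and 1.25 over Pdgfra+. On maximum signal these differences were 0.51 at Atf1, where Oct4+ and Pdgfra+ overlapped, and 0.93 at Pisd-ps2, where they did not.

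Regions with H3K9me3 in at least 5 libraries had a median of 24.8% of bases in repeats, against 19.5% for constant regions without H3K9me3 in any library. The shared start of the imprinted genes Peg3 and Usp29 (chr7:6726416-6731572), chosen after its values were seen, had H3K9me3 in 8 of 9 libraries and H3K4me1 in none. Its H3K27ac means were -0.41 ± 0.25 in Oct4+, 0.09 ± 0.19 in DP and 0.10 ± 0.26 in Pdgfra+ (SD, n = 3 each), near the typical constant region. Pisd-ps2 is a copy of another gene and can share reads with it, so its values are uncertain.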

How the data were processed

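CUT&Tag libraries of 4 histone marks in FACS-sorted nEnd were analysed from the peak lists that the authors had deposited, 36 lists in all. Per the labels, the authors used bcl2fastq 2.19.1, Bowtie2, SAMtools 1.12, deepTools, SEACR and bedtools 2.26.0 with the build mm10. Peaks had been called for each library against IgG with SEACR in stringent mode, on BEDtools coverage. Each deposited line gives an interval with its total and maximum signal (coverage), which is not scaled to depth. Read numbers and the treatment of reads with several matches are not given in the sources used here.

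Peaks of the 9 H3K27ac lists were merged at an overlap of 1 base, and other marks were counted per region at the same overlap. The members and gene lists were chosen with earlier results of these data known. Named regions were the 10 of highest median percentile, the 5 and 5 most different between Oct4+ and Pdgfra+ without overlap, the 6 of highest rank without a gene start, and the 5 each with H3K27me3 or H3K9me3 in most libraries, and named genes were the list members of highest rank. Of these regions, 2 are not reported here. Gene starts came from GENCODE vM21 on GRCm38, and promoter and microRNA sequences from RefSeq (GRCm38.p6). All 33 promoter windows compared with the genome were identical to it. The library was the unit of each test. Populations were compared by exact permutation tests of the F statistic (1680 assignments, smallest p 0.00357) or of the difference (20 splits), and constant with partial regions by exact two-sided sign-flip permutation tests (512), adjusted by Benjamini-Hochberg at 0.05. Alternatives were other peak numbers per list, 1 kb windows, TSS classes, wider gaps, a replicate block and leaving out each library. The tests were checked on simulated data. Python 3.11.15, NumPy 2.4.6, pandas 2.3.3, SciPy 1.17.1 and Matplotlib 3.10.9 were used.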

Additional observations from a re-analysis of the deposited data

How the results depend on the processing

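The number of constant regions was 409 from lists of equal length and 607 from the upper 50% of each list, and between 1539 and 2034 when 1 library was left out. The share over a protein-coding TSS was 71.75% for the 1522 stretches of at least 200 bases common to all lists, 90.29% with every transcript start and 78.4 to 82.94% when 1 library was left out. Against regions in 7 or 8 libraries, the H3K4me1 difference was 0.487 points (adjusted p = 0.660, exact permutation test, n = 9), and under the other alternatives it ran from 6.264 (H3K27ac lists of equal length) to 39.94 points (over no TSS), apart from 4.249 with 1 kb windows over a TSS, added after seeing the data. The H3K9me3 difference turned to 0.835 points over a TSS, 2.885 over none and 0.263 against regions in 7 or 8 libraries, while it was -3.072 in 1 kb windows over all regions and -0.405 with equal numbers of peaks. With 1 kb windows within the TSS classes, a combination added after seeing the data, it was -0.125 over a TSS and -1.372 over none. Of the 18 alternatives run for H3K9me3, 13 kept the direction and the call. The cause was not tested. When 1 library was left out, the difference between constant and partial regions ran from 13.84 to 16.75 points for H3K4me1, from -2.826 to -2.336 for H3K27me3 and from -2.283 to -1.896 for H3K9me3. The H3K27me3 difference kept its direction and stayed past the threshold under all 18 alternatives run, while its size ran from -0.9036 (equal numbers of peaks) to -6.014 points (over a TSS). No comparison between populations passed the threshold under any of the 16 alternatives, the lowest adjusted p being 0.0536 (exact permutation tests, n = 3 per population) for the H3K9me3 share in constant minus that in partial regions, from H3K27ac lists of equal length.

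The labels do not tie same-numbered libraries to each other, and they were not treated as pairs. They deviated together (correlation over 0.1) in 1 of 9 pairs for H3K27ac, 4 for H3K4me1, 5 for H3K27me3 and 0 for H3K9me3. Pairs with unlike numbers reached 0.328 for H3K4me1 and 0.214 for H3K27me3, beside 0.282 and 0.286 for same-numbered pairs. The counts alone do not show that same-numbered libraries share a culture. With a replicate block, the exact permutation tests between populations gave adjusted p-values of 0.583, 0.417 and 0.639 for H3K4me1, H3K27me3 and H3K9me3, and of 0.458, 0.458 and 0.806 for their shares in constant minus partial regions (n = 3 per population), and no call changed. Depth is unknown, and a peak that a short list leaves out limits every count of regions in 9 of 9 libraries.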
